A study of Mus musculus with 4 samples.

Results

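Complex I (NADH:ubiquinone oxidoreductase) is the entry enzyme of the respiratory chain. The genes for its subunits that lie in the nucleus were chosen by symbol and biotype: protein-coding genes named Ndufa, Ndufb, Ndufc, Ndufs, Ndufv or Ndufab followed by a number, at any level. The deposited table listed 37 such genes among 15746 genes, of which 12321 were protein coding. They were 36 of the 37 nuclear-encoded subunits known in mammals plus Ndufa4, which carries a complex I name and is now described as a subunit of complex IV. The remaining subunit gene was listed under the name Ndufb1-ps and was not matched by the rule. Of the 37 genes, 11 were Ndufs or Ndufv genes and 26 were Ndufa, Ndufb, Ndufc or Ndufab genes.

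RNA-seq values were given for 2 fractions of hearts of adult wild-type (WT) mice, the isolated mitochondria and the rest (tissue minus mitochondria), with 2 libraries each and no other treatment or allele. The rest fraction was the pellet of cell debris from a slow spin of the homogenate. The mitochondria were pelleted from the supernatant at higher speed and treated with digitonin and RNase A, and the fragmentation time of their RNA was adjusted for library preparation. These steps were described for the mitochondria alone, so that they and the fraction cannot be told apart. Neither fraction is a pure compartment, and the labels do not say from which animals the libraries came, so that p-values measure only the spread between these samples.

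The deposited normalized counts are whole numbers obtained from read counts with 1 scaling factor (size factor) per library. From the spacing of the values, about 23500000 to 47400000 reads fell on genes in each library. Genes of the mitochondrial chromosome took 97.6% and 93.5% of the values in mitochondria against 63.2% and 67.5% in rest, and a subunit mRNA had a median of about 146 and 181 reads in mitochondria 1 and 2 against 628 and 427 in rest 1 and 2, and the least covered 23 and 25 against 117 and 55. Of 8 cardiomyocyte markers none was at 0, and 6 had both mitochondrial libraries above both rest libraries, against 27.7% of all tested genes. Ryr2 went the other way, with 10159 and 6395 in mitochondria against 22792 and 18549 in rest. The sum of the 8 markers, 286826 and 212511 in mitochondria and 240801 and 211746 in rest, overlapped and was mostly Myh6. The sum of 3 nuclear RNAs was 13648 and 8699 in mitochondria and 42937 and 45482 in rest.

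Complex I takes electrons from NADH in the matrix and passes them to ubiquinone, and this is coupled to proton pumping by its membrane arm. The tip of the matrix arm (N module) oxidizes NADH, the stem (Q module) reduces ubiquinone, and the membrane arm has a proximal and a distal part. The conserved core of the enzyme is shared with bacteria. It is made partly from mitochondrial genes (mt-Nd) and partly from 7 nuclear genes, among them Ndufv1, Ndufv2, Ndufs1 and Ndufs8, while all other nuclear subunits are accessory. The Ndufs and Ndufv names therefore also include the accessory subunits Ndufs4, Ndufs5, Ndufs6 and Ndufv3. All nuclear subunits are made in the cytosol and imported, and many matrix proteins carry a start rich in the positively charged residues arginine and lysine that directs import.

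The starts of the coding sequences are shown for 7 subunit genes, the 4 highest and 3 at the low end of the log2 fold change (mitochondria over rest). In many matrix proteins the start directs import. Whether it does so in each of these 7 was not tested. Each line gives the first 60 bases from the start codon, 5′ to 3′, with the codons for arginine and lysine in capitals (GENCODE M21, GRCm38). All 7 genes lie on the minus strand.
Ndufc1: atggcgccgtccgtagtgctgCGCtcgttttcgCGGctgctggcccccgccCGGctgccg
Ndufa5: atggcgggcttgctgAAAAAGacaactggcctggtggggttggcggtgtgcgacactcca
Ndufb4: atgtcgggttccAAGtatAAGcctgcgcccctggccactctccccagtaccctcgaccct
Ndufa6: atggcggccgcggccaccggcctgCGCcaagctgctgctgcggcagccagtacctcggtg
Ndufa9: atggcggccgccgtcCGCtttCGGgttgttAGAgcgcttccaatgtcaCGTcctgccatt
Ndufv1: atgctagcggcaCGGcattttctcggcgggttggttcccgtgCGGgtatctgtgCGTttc
Ndufs1: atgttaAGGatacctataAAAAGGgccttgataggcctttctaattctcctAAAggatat

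The genes of the upper 4 lie at chr3:51404677-51408988 (Ndufc1), chr6:24518666-24528013 (Ndufa5), chr16:37647170-37654453 (Ndufb4) and chr15:82350140-82354322 (Ndufa6). The lower 3 lie at chr6:126821721-126849136 (Ndufa9), chr19:4007384-4012806 (Ndufv1) and chr1:63143596-63176833 (Ndufs1). Over codons 2 to 31, the lower 3 had 4 or 5 codons for arginine or lysine and 0 for the negatively charged aspartate or glutamate. Ndufa5, Ndufb4 and Ndufa6 had 3 or 4 positive and 2 to 4 negative codons, whereas Ndufc1 had 5 and 0, as Ndufs1 did. Across the 37 genes, 8 of 11 Ndufs and Ndufv genes and 6 of 26 others had no negative codon in this stretch, and the rank correlation of net charge with the log2 fold change was -0.50 (n = 37 genes from the same 4 libraries, given as a description).

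With the size factors of the deposited table, all 37 subunit mRNAs had a positive log2 fold change between mitochondria and rest, whereas scaled to the library total, which the mitochondrial chromosome dominates, all 37 were negative. The direction is therefore read against the other genes: the median log2 fold change of the 37 genes was 1.53 against -0.14 over the 12150 genes tested, and the distance between these medians was 1.67 as deposited and 1.48 with the library total. At an adjusted p under 0.05 (limma with Benjamini-Hochberg adjustment over all tested genes), 17 of the 37 were higher in mitochondria, against 2.16% of all tested genes, and 0 were lower, against 1.39%. The 20 others had adjusted p-values from 0.0512 to 0.634 by the same test, 10 of them below 0.06, and at an unadjusted p under 0.05 there were 34 higher members, against 14.1% of all tested genes. Both mitochondrial libraries lay above both rest libraries for 36 of the 37 genes, against 27.7% of all tested genes.

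The number of 17 depended on the settings. Left out in turn, each of the 4 libraries took the number of called members to 0, as it did for all tested genes, while 26 to 35 members were higher at an unadjusted p under 0.05, against 4.86% to 19.2% of all tested genes. With the pseudocount of 1 replaced by 0.1 the number was also 0, for members and for all genes. Scaled to the total without the mitochondrial chromosome, 5 members were called higher, against 1.06% of all tested genes, and 33 had a positive log2 fold change where the median of all tested genes was -0.98. The number rose to 26 with recomputed size factors (3.24% of all tested genes), 28 with a pseudocount of 10 (4.41%), 29 with the replicate number as a block (3.87%) and 34 among genes with a mean above 50 normalized counts (14.2%). Of the 37, 33 exceeded a 2-fold difference with the deposited size factors, against 11.7% of all tested genes, and 7 a 4-fold difference, against 1.51%.

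**Figure D1:**
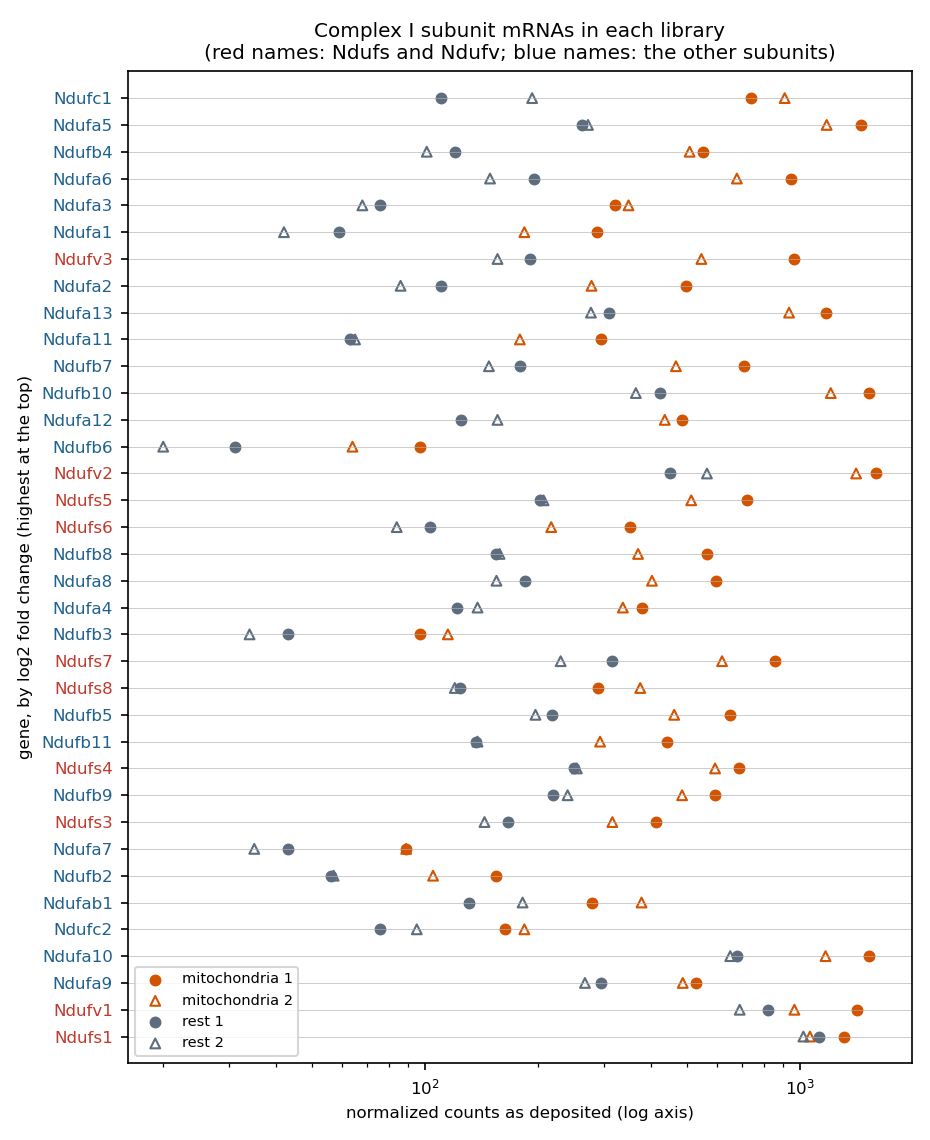
Normalized counts (log axis) of 36 of the 37 subunit mRNAs in each of the 4 libraries, ordered by log2 fold change as deposited. The orange mitochondrial points lie to the right of both grey rest points in every row except that of Ndufs1 at the bottom; after scaling to the library total all 37 would be lower in mitochondria.

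The core of the NADH-oxidizing tip held the least shifted mRNA. Ndufs1, the large iron-sulfur subunit, had 1313 and 1064 normalized counts in mitochondria 1 and 2 and 1122 and 1022 in rest 1 and 2. The libraries overlapped, and the log2 fold change of 0.14 ± 0.19 (SE) did not pass the test (limma, adjusted p = 0.634). It turned to -0.0092 without mitochondria replicate 1.

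Ndufv1, which binds NADH and the flavin cofactor, had 1425 and 967 in mitochondria and 823 and 691 in rest. Its log2 fold change was 0.64 ± 0.25 (SE; limma, adjusted p = 0.173), with the fractions apart by less than in most other subunits. Ndufv2, which carries an iron-sulfur cluster beside Ndufv1, had 1600 and 1413 against 450 and 565. It was called higher, with a log2 fold change of 1.57 ± 0.19 (SE; limma, adjusted p = 0.0427), so that the core subunits of the same module spanned 0.14 to 1.57.

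The Q module as a whole passes electrons to ubiquinone, and its core subunits include Ndufs3, Ndufs7 and Ndufs8. Ndufs3 had 414 and 316 against 166 and 144, and Ndufs7, which holds the cluster closest to ubiquinone, had 860 and 620 against 315 and 230. For both, the mitochondrial libraries were clearly separate from rest, but their log2 fold changes of 1.22 and 1.44 missed the threshold (limma, adjusted p = 0.0551 and 0.0566). Ndufs8, another iron-sulfur subunit, had 290 and 375 against 124 and 120 and was called higher, at 1.43 ± 0.21 (SE; limma, adjusted p = 0.0469).

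Accessory subunits of the matrix arm covered a wider range at the upper end. Ndufa5 of the Q module had 1452 and 1179 in mitochondria against 263 and 272 in rest, and Ndufa6, an LYR-motif protein that binds the acyl carrier protein, had 949 and 679 against 195 and 149. Their log2 fold changes were 2.29 ± 0.18 and 2.23 ± 0.25 (SE), and both were called (limma, adjusted p = 0.0427 each). Ndufv3, named after its values were seen, had 964 and 546 against 190 and 156 and was called at 2.07 (limma, adjusted p = 0.0497), the highest of the Ndufs and Ndufv genes.

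Ndufs4, whose loss impairs complex I and gives a Leigh-like encephalopathy in mice, had 686 and 594 against 250 and 254. Ndufa12, a late addition to the N module, had 484 and 436 against 125 and 156. Both were called, at 1.34 ± 0.17 and 1.71 ± 0.20 (SE; limma, adjusted p = 0.0427 each). At the other end, Ndufa9, a Q-module subunit of the short-chain dehydrogenase family that binds NADPH, had 527 and 487 against 295 and 267. Its replicates were close, but at 0.85 ± 0.17 (SE) it was the lowest of the 26 genes outside Ndufs and Ndufv and was not called (limma, adjusted p = 0.0605).

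In the membrane arm, the highest value belonged to Ndufc1, a small subunit of the proximal part. It had 740 and 911 in mitochondria and 110 and 193 in rest, and its log2 fold change of 2.49 ± 0.32 (SE; limma, adjusted p = 0.0427) was the largest of the 37 genes. Ndufa3 had 321 and 349 against 76 and 68, and Ndufa1, a short X-linked subunit, had 287 and 184 against 59 and 42. These small membrane subunits were called at 2.20 and 2.18 (limma, adjusted p = 0.0427 and 0.0469). Ndufa13, also known as GRIM-19, had 1174 and 936 against 309 and 277 and was called at 1.84 ± 0.19 (SE; limma, adjusted p = 0.0427).
Ndufa10, a subunit related to nucleoside kinases, was abundant in both fractions, with 1530 and 1171 against 681 and 652. It stood at the lower end of the membrane arm, at 1.01 ± 0.20 (SE), and was not called (limma, adjusted p = 0.0605).

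In the distal part, Ndufb4 had 550 and 508 against 120 and 101 and Ndufb10 had 1534 and 1209 against 423 and 365. Both were called, at 2.25 ± 0.19 and 1.79 ± 0.20 (SE; limma, adjusted p = 0.0427 each). For Ndufb4, 35.2% of the 75-base stretches of its transcript also occur in an annotated transcript of Ndufb4c or Gm16056, so that its count is uncertain. Ndufb6 had 97 and 64 against 31 and 20, and Ndufb3 had 97 and 115 against 43 and 34. These were among the lowest counts of the family and were not called, at 1.62 and 1.44 (limma, adjusted p = 0.0703 and 0.0549).
Ndufab1, the mitochondrial acyl carrier protein, which binds in both arms and is grouped here with the distal part, was named after its values were seen. It had 279 and 378 against 131 and 182, with mitochondria 1 below mitochondria 2, the reverse of 30 of the 37 genes. Its log2 fold change of 1.07 was the smallest of the distal part (limma, adjusted p = 0.0824). Ndufa4 had 380 and 337 against 122 and 138 and was called at 1.46 ± 0.18 (SE; limma, adjusted p = 0.0427), and without it 16 of 36 genes were called.

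**Figure D2:**
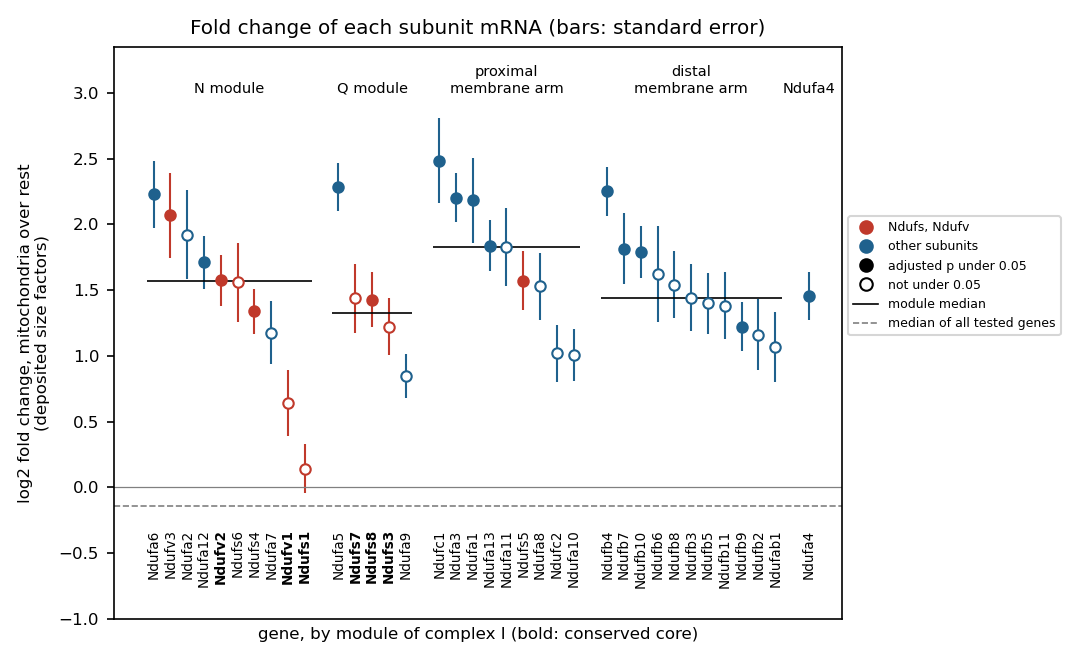
Log2 fold change (mitochondria over rest, deposited size factors, 2 libraries each) with its standard error for 36 of the 37 genes, grouped by module; filled points have a limma adjusted p under 0.05. Module medians lie between 1.32 and 1.83, above the median of all tested genes at -0.14, and the 2 lowest points of the N module are the core genes Ndufv1 and Ndufs1; scaled to the library total all 37 values are negative.

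By module, 5 of 10 N-module genes were called with a median log2 fold change of 1.57, 2 of 6 Q-module genes with 1.32, 5 of 9 proximal genes with 1.83 and 4 of 11 distal genes with 1.44. No module had a member called lower. The medians of the modules were closer to each other than the members within the N module, which ran from 0.14 for Ndufs1 to 2.23 for Ndufa6.

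The Ndufs and Ndufv genes were then compared with the others. Of the former, 5 of 11 were called, with a median log2 fold change of 1.43, and of the latter 12 of 26, with 1.58. The difference of the medians was -0.15, and -0.39 without mitochondria replicate 2, with the other libraries left out giving values between these. In the 4 libraries taken singly, the median log2 level of Ndufs and Ndufv genes exceeded that of the others by 0.75 and 0.60 in mitochondria and by 0.96 and 0.63 in rest, and these values overlapped. By this symbol grouping the typical core and accessory mRNAs were thus not separated between the fractions beyond the spread of the libraries. With 2 libraries against 2, an exact permutation test cannot give a two-sided p below 0.333.

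Restricted to the 7 genes of the conserved core, 2 of 7 were called with a median of 1.22, against 15 of 30 accessory genes with 1.57. In median log2 level the conserved core exceeded the other genes by 1.28 and 1.20 in mitochondria 1 and 2 and by 1.74 and 1.89 in rest 1 and 2, without overlap. This quantity is a difference within each library and does not depend on its size factor.

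The make-up of the complex I mRNA pool moved in the same direction. Ndufs and Ndufv genes gave 41.7% (95% Wilson interval 40.6 to 42.9) and 38.7% (37.6 to 39.7) of the normalized counts of the 37 genes in mitochondria, and 51.9% (51.4 to 52.4) and 49.7% (49.0 to 50.3) in rest. The conserved core gave 30.3% ± 1.39 in mitochondria and 42.6% ± 1.65 in rest (SD, n = 2 each). The libraries of the fractions did not overlap, and the differences, mitochondria minus rest, of -10.6 and -12.3 percentage points were larger than the spread between replicates. Ndufs1 alone gave 5.05% (4.55 to 5.59) and 5.32% (4.85 to 5.84) in mitochondria and 12.2% (11.9 to 12.5) and 11.99% (11.6 to 12.4) in rest. The intervals cover counting error only. Among other core genes, Ndufv1 also had a lower mean share in mitochondria, 5.16% against 8.53% in rest. Ndufv2 (6.61% against 5.76%) and Ndufs7 (3.20% against 3.06%) did not fall, and their libraries overlapped. The drop of the core was thus not shared by all of its genes.

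**Figure D3:**
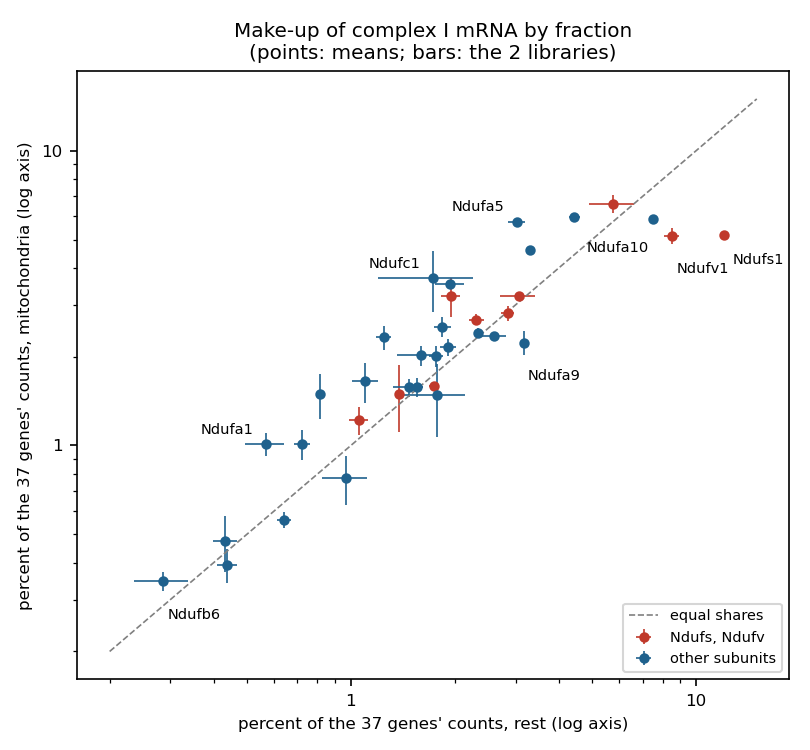
Share of 36 of the genes in the normalized counts of all 37, rest (x, percent, log axis) against mitochondria (y, percent, log axis), with means as points and the 2 libraries as bar ends. Ndufs1, Ndufv1, Ndufa10 and Ndufa9 lie below the dashed line of equal shares and Ndufc1, Ndufa5 and Ndufa1 above it; shares do not depend on the size factors.

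The genes at the low end share a long coding sequence. Ndufs1 (2184 coding bases), Ndufv1 (1395), Ndufa9 (1134) and Ndufa10 (1068) are among the longest of the 37, and they include core and accessory genes. Across the 37 genes coding length and log2 fold change had a Pearson's r of -0.64 and a Spearman's rho of -0.52. Within the 11 Ndufs and Ndufv genes r was -0.59 and within the other 26 it was -0.58. With transcript length in place of coding length, r was -0.45 over the 37 genes, -0.52 within the 11 and -0.25 within the other 26. With the number of exons it was -0.67 over the 37 genes. The relation with coding length was present in the rest of the table, with r = -0.39 and rho = -0.41 over 10560 other nuclear protein-coding genes. For transcript length r was -0.40 over these other genes. These are descriptions over genes measured in the same 4 libraries, and genes are not independent replicates.

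Set beside other nuclear protein-coding genes of like coding length, the subunits stood higher. Below 450 bases, the median log2 fold change was 1.82 for 19 subunits and 0.85 for 646 other genes. From 450 to 600 bases it was 1.39 for 8 subunits against 0.49, and from 600 to 900 bases 1.43 for 4 subunits against 0.26. From 900 to 1500 bases it was 0.85 for 5 subunits against -0.04, and Ndufs1, with 0.14, was alone above 1500 bases, where other genes had -0.42. The distance was thus positive in each of the 5 ranges, while the median of other genes was lower in each longer range. The ranges matched coding length only, and the subunits had the shorter median transcript in each. This was 610 against 1038.5 bases in the range below 450 and 1623 against 2469 in that from 900 to 1500. The part of transcript length was not tested.

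The core grouping and coding length overlapped. Of the 26 genes outside Ndufs and Ndufv, 24 had fewer than 600 coding bases, with a median of 1.67, and only Ndufa9 and Ndufa10 were longer, with 0.85 and 1.01. Of the 11 Ndufs and Ndufv genes, 8 were longer, with a median of 1.32, and the short Ndufs4, Ndufs5 and Ndufs6 had 1.34, 1.57 and 1.56. These longer genes were of unlike length. Ndufv1 (1395 bases) and Ndufs1 (2184), with 0.64 and 0.14, lay below both Ndufa9 and Ndufa10. The 4 genes of 600 to 900 bases, all Ndufs or Ndufv, had a median of 1.43 and lay above both. With only Ndufa9 and Ndufa10 on the other side the groups were not ranked, and the part of length in the core difference was not tested. Ndufv3 lay apart from this pattern, with 1407 coding bases in the transcript used and 2.07, and an annotated transcript of 493 bases also exists for it.

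**Figure D4:**
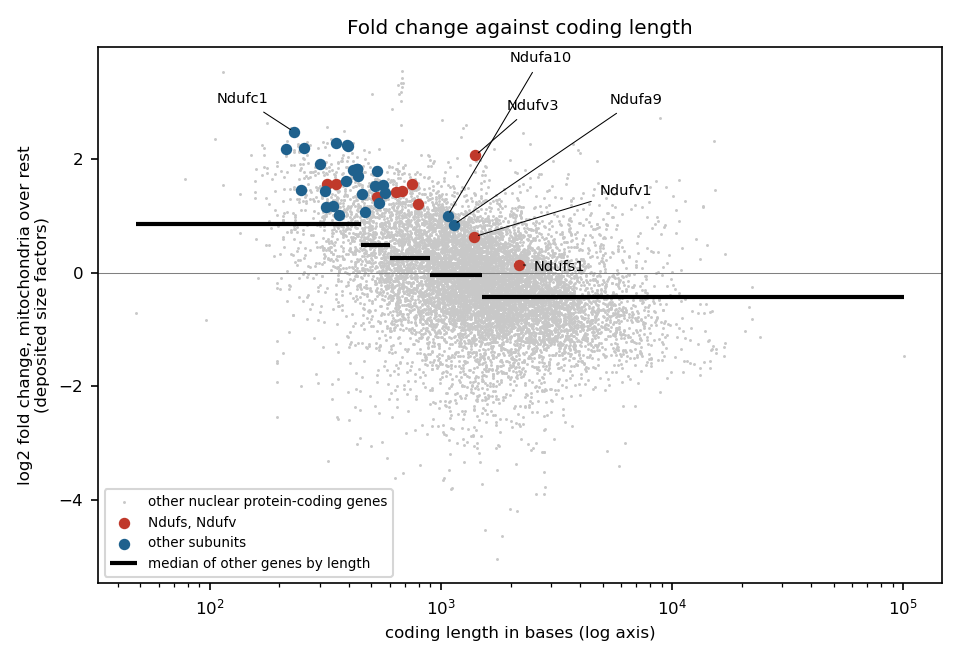
Log2 fold change (mitochondria over rest, deposited size factors) against coding length in bases (log axis) for 36 of the 37 subunits and, in grey, other nuclear protein-coding genes; black lines are medians of the grey genes in 5 length ranges, from 0.85 in the shortest to -0.42 in the longest. The 36 subunits lie above the line of their range and tend to be lower where the coding sequence is longer (Spearman's rho -0.52 over the 37). Exceptions include Ndufv3, which is high for its length, and the short Ndufc2 (363 bases, 1.02), which lies below the longer Ndufv2 (747 bases, 1.57). Scaled to the library total all 37 subunits are negative.

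Levels per kilobase of transcript showed which subunit mRNAs were abundant in each fraction. In rest, Ndufb10 (538 ± 56.0 normalized counts per kb) and Ndufv1 (456 ± 56.2) were among the highest (SD, n = 2 each). Ndufb6 (38.7 ± 11.8), Ndufb3 (50.5 ± 8.34) and Ndufa7 (73.9 ± 10.7) ranked lowest. Ndufa7 itself had 89 and 89 normalized counts in mitochondria and 43 and 35 in rest, a log2 fold change of 1.18 that was not called (limma, adjusted p = 0.0634). In mitochondria, the same 3 genes ranked lowest, whereas Ndufb10 (1874 ± 314) and Ndufa5 (1503 ± 221) led and Ndufs1 went from rank 4 in rest to rank 24. The level per kb in the fractions had a rho of 0.79 over the 37 genes, and the SD of the log2 level per kb over the genes was 0.86 to 0.97 within each library. By this measure, subunit mRNAs of a complex with fixed stoichiometry were far from equal in level in either fraction. The measure rests on a chosen transcript for each gene, and annotated lengths differ, for example 315 to 1249 bases for Ndufc1. For Ndufb6, 31.3% of the 75-base stretches also occur in a transcript of another gene, so that its count is uncertain.

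Other genes of the pathway were read by lists, with the deposited size factors; scaled to the library total, 12022 of the 12150 tested genes were lower and 2 higher. The 7 mitochondrial genes of complex I (mt-Nd) had a median log2 fold change of 3.41, and 3 of 7 were called higher. The ratio of the summed mt-Nd to the summed nuclear subunit counts was 99.0 and 198 in mitochondria and 35.5 and 39.1 in rest, without overlap and independent of the size factors. Of the 16 listed assembly factors, which build complex I and are not part of it, 15 were in the table and 1 was called higher, with a median of 0.87. This was Ndufaf8, the highest of the list at 2.55, and Nubpl, an iron-sulfur protein for complex I, was the lowest at -0.08, with 15 and 5 normalized counts in mitochondria, where 3 reads correspond to 11.6 and 7.65, so that its place was not resolved at this depth.

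Of the other complexes of oxidative phosphorylation, the nuclear genes of complexes III to V had medians near that of complex I, and those of complex II a lower median. Of 4 complex II genes 0 were called by limma, with a median of 0.86. At an unadjusted p under 0.05, 2 of these 4 were higher, against 14.1% of all tested genes. For complex III, 4 of 9 were called with a median of 1.78, for complex IV 10 of 13 with 1.80, and for complex V 8 of 17 with 1.56. Over complexes II to V, 22 of 43 genes were called higher with a median of 1.67 and 0 were called lower, from Sdha, the flavoprotein of complex II, at 0.09 to Atp5mpl, a small subunit of ATP synthase, at 2.65. The summed subunits of complex I were 0.401 and 0.410 of the sum of these 43 genes in mitochondria and 0.368 and 0.382 in rest. This ratio did not overlap between the fractions but differed little.

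**Figure D5:**
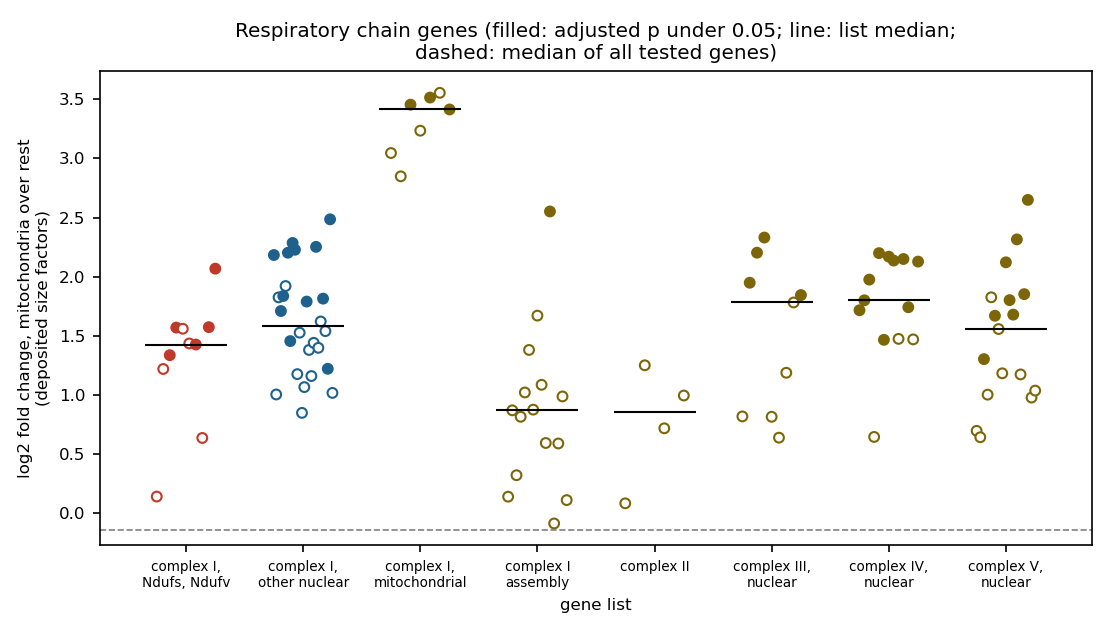
Log2 fold change (mitochondria over rest, deposited size factors) by gene and list, with 1 Ndufs or Ndufv gene not drawn; filled points have a limma adjusted p under 0.05, black lines are list medians and the dashed line is the median of all tested genes, -0.14. The complex I groups at 1.43 and 1.58 lie near complexes III to V and below the mitochondrial complex I genes at 3.41; scaled to the library total the 37 nuclear complex I values are negative.

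Several measures moved with the fractions beside the subunits. The median log2 fold change of the 8 cardiomyocyte markers was 0.87, with a range from -1.35 for Ryr2 to 1.88 for Tnnt2 and 0 of 8 called by limma. At an unadjusted p under 0.05 there were 7, of which Ryr2 was lower and the others higher, against 3683 of the 12150 tested genes in either direction. The 5 fibroblast markers had a median of 1.02 and summed to 8188 and 3440 in mitochondria and 2175 and 3063 in rest. The 4 macrophage markers had 1.04, the 4 red blood cell markers -2.07 and the 3 nuclear RNAs -2.23. By limma, each of these lists had 0 called genes. Cd68, a macrophage marker, had only 19 and 23 normalized counts in mitochondria 1 and 2. The red blood cell markers had only 4 to 23 normalized counts in mitochondria 1, where 3 reads correspond to 11.6. Their place was not resolved at this depth. The 6 endothelial markers had a median of -0.76, and Vwf alone among them was positive, at 0.87. Of 3 smooth muscle markers 2 were in the table, with a median of -2.16. Myh11 was called lower, whereas Acta2 overlapped, with 93 and 362 in mitochondria and 208 and 574 in rest. None of these genes was at 0 in a library, and their part in the subunit results was not tested. In total RNA of tissue fractions, fewer cells or particles of a kind and less RNA in each cannot be told apart.

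Sequence shared with other genes was checked because reads on several genes or regions were left out by the authors. Of the 37 genes, 16 shared at least 1 stretch of 75 bases with an annotated transcript of another gene, and 16 overlapped the exons of another gene, 14 of them on the opposite strand. Whether strand was used in counting is not given in the sources used here. The shared part was largest for Ndufb4, Ndufs5, Ndufb6, Ndufs3, Ndufab1 and Ndufa13, at 25.6% to 35.2%, and their counts are uncertain. The 17 genes with neither feature had a median log2 fold change of 1.53, and 11 of them were called.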

How the data were processed

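Values came from total RNA (SMARTer Stranded Pico kit) of 2 mitochondrial and 2 rest libraries of mouse heart. According to the submitters' processing notes, reads were trimmed (Trimmomatic 0.39), aligned to mm10 (STAR 2.7.10a), counted per gene (featureCounts 2.0.2) and scaled (DESeq2 1.30.1). The deposited values, treated as a score, are counts divided by size factors and rounded by the authors, so that reads per gene are approximate and no count test was run.

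Values were tested on log2(normalized count + 1) with limma 3.58.1 (R 4.3.3; moderated test with a mean-variance trend, Benjamini-Hochberg) over the 12150 genes that reached 10 normalized counts in 2 or more libraries. All 37 members passed this filter. The model had no replicate term. Fold changes on this scale understate those of low genes. The test was checked on simulated data.

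The members and lists were chosen with earlier results of these data known. Genes named were the conserved core, up to 12 called members by adjusted p, the 5 highest and 5 lowest fold changes, the 3 highest and 3 lowest levels per kb, and Ndufa4; the values of 1 gene that this rule names are not reported here, and it stays in counts and medians over members. Other genes, chosen after seeing their values, are so marked or were placed by module, length or list. Coding and transcript lengths came from GENCODE M21 (best-supported, principal, then shortest transcript; GRCm38). Wilson intervals (95%) used approximate reads from the spacing of values. Scaling, pseudocount, filter, replicate block and left-out libraries were varied. Python 3.11.15, scipy 1.17.1 and matplotlib 3.10.9 were used.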

Additional observations from a re-analysis of the deposited data

How the results depend on the processing

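With recomputed size factors 26 members were higher in mitochondria (3.24% of all tested genes), with pseudocounts of 0.1 and 10 there were 0 (0%) and 28 (4.41%), without a filter 14 (1.77%), and among genes with a mean above 50 normalized counts 34 (14.2%), by limma, against 17 (2.16%). With the replicate block 29 members were higher (3.87%); the numbers share only a label, and the replicate differences of the fractions had r = 0.13 over 12150 genes. Leaving out a library gave 0 members higher in each of 4 fits (26 to 35 at an unadjusted p under 0.05, against 4.86% to 19.2% of all tested genes), in which the lone library was assumed to vary like the others; the medians ranged over 1.32 to 1.68 for all members, 1.21 to 1.44 for Ndufs and Ndufv, 1.42 to 1.83 for the others, and -0.39 to -0.20 for their difference. Taking the 7 conserved genes as the core, the difference was -0.35. Scaled to the total without the mitochondrial chromosome, 5 members were higher (1.06%), the medians were 0.67, 0.57 and 0.73, and genes that reversed were Ndufs1 (-0.72), Ndufv1 (-0.23) and Ndufa9 (-0.013); Ndufs1 also reversed without mitochondria replicate 1, over a range of -0.0092 to 0.29 with a library left out.

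Scaled to the library total, 0 members were higher and 37 lower, and the medians were -2.44, -2.54 and -2.35, while all tested genes had -3.93. The log2 fold changes of 36 members were then -1.49 (Ndufc1), -1.69 (Ndufa5), -1.72 (Ndufb4), -1.75 (Ndufa6), -1.75 (Ndufa3), -1.76 (Ndufa1), -1.91 (Ndufv3), -2.04 (Ndufa2), -2.13 (Ndufa11), -2.14 (Ndufa13), -2.16 (Ndufb7), -2.19 (Ndufb10), -2.26 (Ndufa12), -2.27 (Ndufb6), -2.40 (Ndufs6), -2.40 (Ndufs5), -2.41 (Ndufv2), -2.43 (Ndufb8), -2.44 (Ndufa8), -2.47 (Ndufb3), -2.51 (Ndufa4), -2.54 (Ndufs8), -2.54 (Ndufs7), -2.57 (Ndufb5), -2.59 (Ndufb11), -2.64 (Ndufs4), -2.73 (Ndufa7), -2.75 (Ndufs3), -2.75 (Ndufb9), -2.77 (Ndufb2), -2.90 (Ndufab1), -2.93 (Ndufc2), -2.98 (Ndufa10), -3.12 (Ndufa9), -3.34 (Ndufv1) and -3.84 (Ndufs1). The mitochondrial chromosome makes up most of that total. Otherwise the cause of these changes was not tested. No member was called lower under any other alternative run. DESeq2 was not run because the values are not counts, and about 23 to 25 reads behind the least covered member limit the mitochondrial values.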

Other observations

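Relatives and pseudogenes of the subunit genes, named after their values were seen, had values of their own in the table. Ndufb1-ps, listed as protein coding and absent from the symbol rule, had 430 and 365 normalized counts in mitochondria against 64 and 65 in rest, a log2 fold change of 2.60 ± 0.19 (SE; limma with Benjamini-Hochberg adjustment, adjusted p = 0.0427), above the highest of the 37 genes with the deposited size factors. Ndufb4c had 314 and 199 against 67 and 53 (log2 fold change 2.05), close to the 2.25 of Ndufb4, with which it shares sequence. The authors left out reads that aligned to several regions, so that reads from the shared part may be missing from both genes. Both values are uncertain. Ndufs5-ps had 329 and 265 against 79 and 83 (1.85), beside 1.57 for Ndufs5. Ndufab1-ps had 23 and 61 against 12 and 27, with the fractions overlapping, and was not called at 1.02 (limma, adjusted p = 0.343).

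Ndufa4l2, a paralog of Ndufa4 known for its response to hypoxia, was low in all libraries, with 12 and 15 normalized counts in mitochondria and 18 and 11 in rest, where 3 reads correspond to 11.6 and 7.65 in mitochondria 1 and 2. Its fractions overlapped, and a difference was not detectable at this depth.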
